A study of Nothobranchius furzeri with 6 samples.

Results

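The 45 transcripts described here carried more ribosome footprints in adult liver than at either other age in Nothobranchius furzeri, a killifish with a very short life span. Ribosome profiling, which sequences the mRNA fragments that ribosomes shield from nuclease, had been run on pooled livers of fish of strain MZM-0410 at 3 ages, with 2 libraries at each: young at 5 weeks post-hatching, adult at 12 weeks and old at 39 weeks. Each library was made from the livers of several fish of both sexes in equal ratio, so the spread within an age is a spread between pools. Footprints were summed over the coding sequence of each transcript and scaled by median-of-ratios size factors, which set the typical transcript equal in all libraries, and such values are called scaled footprints below. Members were chosen by these values in all 6 libraries: a transcript was taken if the lower of its adult values, with 1 added, was over 2 times the highest of its 4 young and old values, with 1 added. Of 22757 transcripts, 13652 had the 100 or more summed footprints required, and 45 of these (0.330%) met the rule. The same rule gave 69 transcripts when young was taken as the high age and 412 when old was. The adult peak of the members was therefore fixed by the choice, and the adult values below are a description of it.

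The libraries held between 22617158 and 39738019 footprints, with the fewest in old replicate 2. A single transcript of 1699 codons took from 5.27% of the footprints in old replicate 2 to 29.97% in adult replicate 2, and the size factors ran from 0.635 in adult replicate 2 to 1.54 in old replicate 1. The identifiers of the transcripts carry no gene names and 0 of them matched the table of killifish genes at hand. Members are therefore described by the number of their coding codons and by protein family signatures, which are short residue patterns searched in the translated coding sequence. For the same reason the liver label could not be checked against named marker genes, and lists of named pathway genes could not be applied. In bulk liver, fewer cells of a type and less RNA per cell cannot be told apart. Matched mRNA levels were not used, so a footprint difference includes any difference in mRNA.

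Footprints report which mRNAs are being read by ribosomes, and several of the families recognised among the members have well-known work in a cell. Cyclins bind and switch on cyclin-dependent kinases at set steps of the cell cycle. Core histones package DNA, and the synthesis of most of them is coupled to DNA replication. Basic leucine zipper (bZIP) proteins grip DNA through a basic stretch and pair through a zipper, while helix-loop-helix (HLH) proteins pair through a helical motif and either bind DNA with a basic stretch or, lacking one, keep a partner off it. Hepatocytes of adult vertebrates rarely divide unless the liver is injured or growing.

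At least 1 signature was found in 17 members and none of the 26 searched in the other 28, and the list was drawn up after the members' sequences had been seen. The coding stretches that hold a signature are shown for the members on which the results turn, read from the deposited codons, 5′ to 3′, with the bases of the signature in capitals and 4 codons on either side in lower case.
kinase of 303 codons, ATP-binding signature: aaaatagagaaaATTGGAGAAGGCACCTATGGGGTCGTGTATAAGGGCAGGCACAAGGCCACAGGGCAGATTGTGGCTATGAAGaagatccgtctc
kinase of 1169 codons, ATP-binding signature: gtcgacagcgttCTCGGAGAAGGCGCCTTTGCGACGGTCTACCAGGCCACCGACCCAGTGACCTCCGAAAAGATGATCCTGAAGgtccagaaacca
cyclin of 303 codons: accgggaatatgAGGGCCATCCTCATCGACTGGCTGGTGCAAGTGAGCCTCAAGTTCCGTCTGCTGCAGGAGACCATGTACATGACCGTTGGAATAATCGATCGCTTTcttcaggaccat
histone H3 of 136 codons: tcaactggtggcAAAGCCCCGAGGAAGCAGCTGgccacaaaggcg
histone H2A of 128 codons: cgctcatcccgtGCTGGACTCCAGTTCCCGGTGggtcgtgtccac
histone H2B of 124 codons: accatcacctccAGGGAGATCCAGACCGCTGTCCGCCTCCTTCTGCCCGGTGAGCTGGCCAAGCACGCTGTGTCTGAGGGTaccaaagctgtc
HLH protein of 129 codons: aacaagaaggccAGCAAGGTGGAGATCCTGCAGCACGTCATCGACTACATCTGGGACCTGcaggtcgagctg
bZIP protein of 322 codons, basic stretch: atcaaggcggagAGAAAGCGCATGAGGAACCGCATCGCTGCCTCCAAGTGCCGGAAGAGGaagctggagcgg
bZIP protein of 354 codons, basic stretch: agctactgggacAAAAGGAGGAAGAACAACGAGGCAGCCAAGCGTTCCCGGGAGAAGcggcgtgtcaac

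Shared sequence limited the counts of a few of these. Only footprints with a single best location were counted. Windows of 27 bases were compared over each coding sequence together with the 21 flanking bases on either side. For H2B 77.2% of them recurred in other transcripts, against 11.2% for H3 and 4.47% for H2A. Such recurring windows made up over 5% of this span in 5 members and were absent from 33. The 5 also include the members of 274, 479 and 392 codons (46.4%, 40.5% and 32.6%), and their counts are uncertain wherever a near-identical copy could have taken or lost reads.

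The members with the widest gap between adult and the other ages had no recognised signature. The first 20 codons of the leading 3 are given so that they can be identified, with the start codon in capitals.
Nfu_t_1_055578, 576 codons: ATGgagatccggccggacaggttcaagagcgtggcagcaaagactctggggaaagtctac
Nfu_t_1_004265, 274 codons: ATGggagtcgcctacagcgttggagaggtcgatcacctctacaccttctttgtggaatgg
member of 372 codons: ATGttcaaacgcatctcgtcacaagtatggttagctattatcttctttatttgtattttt

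Nfu_t_1_055578 had the highest ratio of the lower adult to the highest other value, 5.62, on few footprints. Its scaled footprints were 2.51 and 6.29 in young, 40.0 and 56.7 in adult, then 5.85 and 2.77 in the old libraries, from 107 reads in all. Young and old overlapped. Nfu_t_1_004265 followed with a ratio of 5.00 and far more reads, 2316. Its values were 104 and 172 in young, 864 and 982 in adult, then 155 and 96.8 in the old libraries, so that old again lay within the young range or just under it. The transcript of 372 codons came next with a ratio of 4.94, at 35.2 and 25.1 in young, 296 and 392 in adult, then 59.2 and 15.7 in the old libraries. Its old libraries lay on opposite sides of the young pair. Across all members the ratio ran from 2.00 to 5.62 with a median of 2.43. It exceeded 3 in 9 members and was under 2.5 in 26.

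**Figure D1:**
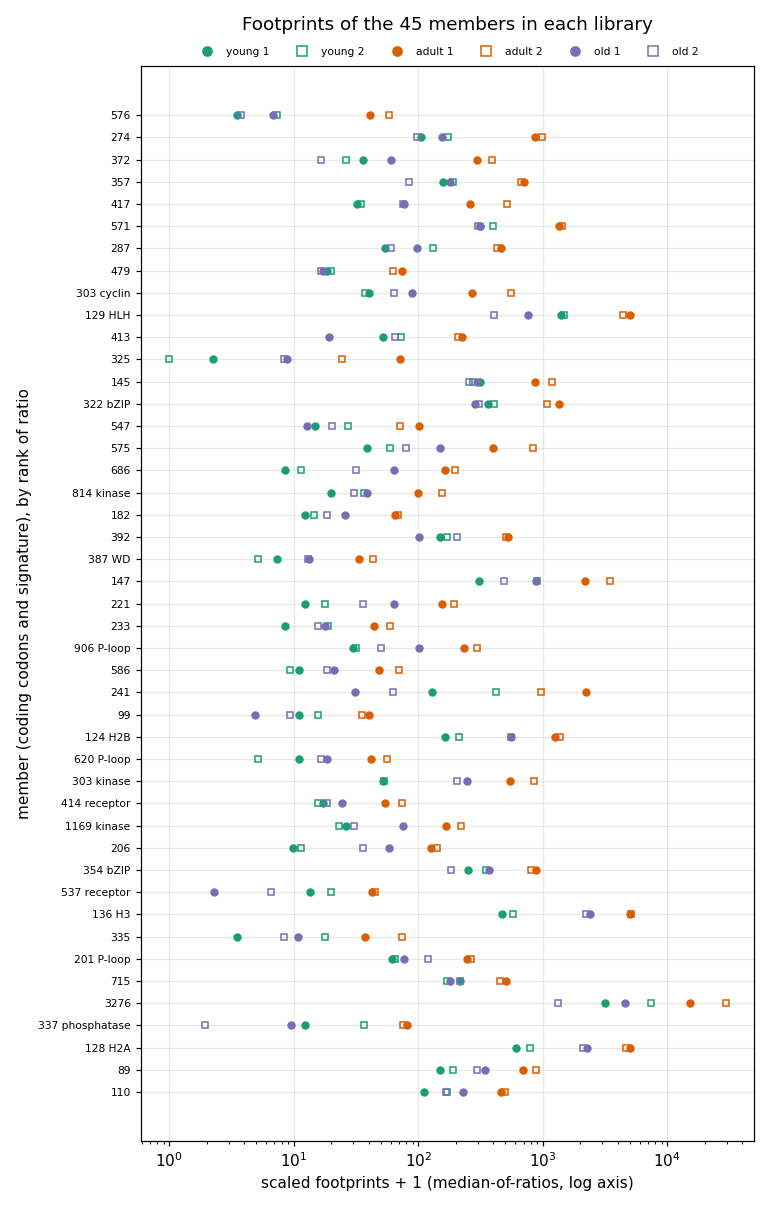
Scaled footprints plus 1 (log axis) of each of the 45 members in the 6 libraries, ordered by the ratio of the lower adult to the highest other value (5.62 at the top, 2.00 at the bottom). Orange adult points lie to the right of all others in every row because the rule required it, whereas the order of green (young) and violet (old) points was left free and differs between rows.

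The rule did not set the order of young and old, and many transcripts outside the members kept these ages apart too: both old libraries were above both young ones in 31.4% of the 13652 kept transcripts and below both in 32.4%. Most other members with a ratio over 3 stood at similar levels in young and old fish. The transcript of 571 codons had 313 and 400.2 scaled footprints in young, 1340.5 and 1423 in adult, then 314 and 301 in the old libraries. The one of 357 codons stood at 156 and 189 in young, 706 and 664 in adult, then 178 and 83.9 in the old libraries. In both, neither old library exceeded the higher young one. For 287 codons the values were 52.8 and 131 in young, 463 and 425 in adult, then 96.2 and 59.0 in the old libraries, with old inside the young range. For 479 codons they were 17.6 and 18.9, then 73.7 and 61.4, then 16.3 and 15.7, with both old libraries just under both young ones. A transcript of 417 codons went from 31.4 and 33.5 in young to 260.3 and 518 in adult and stood at 75.4 and 74.7 in old libraries, above both young values.

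Members varied widely in abundance. Per 1000 codons, which allows transcripts of different length to be set side by side, the mean adult level of the members ran from 77.3 to 37805 scaled footprints with a median of 925, against 302 over the 13652 transcripts. The top of this order was held by histone H2A (37805), histone H3 (37465) and the HLH transcript (36384). They were followed by a transcript of 147 codons (19209), histone H2B (10558) and transcripts of 89 codons (8837), 145 codons (7079.9), 3276 codons (6795), 241 codons (6639) and 110 codons (4367). Only 24.8% of the H2B codons had any read, so its level per length is not comparable with the others. At the other end, 25 members had under 1000 summed footprints. The rule chose members for high adult values, which favours the high adult median given above. Over all 6 libraries the median member had 837 summed footprints, against 953 for all kept transcripts. The median member had 37.7 and 36.7 scaled footprints in young, 260.3 and 392 in adult, then 75.4 and 61.8 in the old libraries, while the median of all kept transcripts lay between 142 and 155 in the 6 libraries. Together the members took 0.0192% and 0.0386% of all footprints in young, 0.156% and 0.106% in adult, then 0.0603% and 0.0495% in the old libraries. The transcript of 3276 codons made up a large part. In scaled footprints the members summed to 8957 and 15006 in young, 48507 and 63851 in adult, then 15300 and 10300 in the old libraries. Without that transcript the sums were 5787 and 7633, then 33394.5 and 34444, then 10700 and 8974.

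The 2 adult pools differed by 1.5 times or less in 35 members, near the share of all kept transcripts (73.2%). The rule turned on the lower adult value, which favours adult pools that agree. The young pools differed by 1.5 times or less in 29 members (80.8% of all) and the old pools in 22 (70.2% of all), both under those shares. The rule also capped the young and old values, which in the median member were well under those of all kept transcripts. Nothing is therefore read from these 2 counts. The widest differences between the adult pools were in the transcript of 325 codons, where replicate 2 had 0.338 times the value of replicate 1, and in the transcript of 575 codons, where it had 2.11 times. Adult replicate 2 was above adult replicate 1 in 30 members (51.1% of all), young replicate 2 above young replicate 1 in 35 (53.6% of all) and old replicate 1 above old replicate 2 in 36 (47.6% of all). The library that set the limit, the highest of the 4, was old replicate 1 for 23 members, young replicate 2 for 18, old replicate 2 for 3 and young replicate 1 for 1. Both adult libraries were above all 4 others, with no minimum gap, in 1400 of the 13652 transcripts (10.3%).

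The cyclin transcript was among the 9 members with a ratio over 3. Its scaled footprints were 38.9 and 36.7 in young, 270.4 and 551 in adult, then 88.4 and 62.7 in the old libraries, with both old libraries above both young ones. The mean of the old libraries was 2.00 times that of the young ones, with a log2 difference of 1.03 ± 0.40 (SE) that did not pass the threshold (edgeR adjusted p = 0.130). Of 8 transcripts with this signature and enough reads, all had their highest mean in adult, as did 29.1% of all kept transcripts, but the other 7 did not reach the gap required. By library totals 4 of 9 tested were higher in old than in adult, where 13797 of all 15557 tested transcripts were. The family's median log2 difference was -0.03 there, against 0.83 over all tested. All 9 remained above young in adult, where 8183 of the 15557 did. A cyclin transcript of 433 codons that was no member, singled out after its values were seen, had 10.0 and 20.95 scaled footprints in young, 158 and 229.8 in adult, then 106 and 64.5 in the old libraries.

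The kinase of 303 codons, which carries both the ATP-binding and the serine/threonine active-site signature of protein kinases, stood above its young level in old fish. It had 51.5 and 52.4 scaled footprints in young, 546 and 845 in adult, then 244 and 202 in the old libraries. Both old libraries were above both young ones, by 2.13 ± 0.28 on the log2 scale (edgeR adjusted p = 0.0149). Kinases of this fold move phosphate from ATP to serine or threonine on other proteins. The kinase of 1169 codons had 25.1 and 22.0 in young, 167 and 219 in adult, then 74.8 and 29.5 in the old libraries, where old was above young by 1.19 ± 0.47 without passing (adjusted p = 0.139). Another transcript, of 814 codons, held only the active-site signature and stood at 18.8 and 35.6, then 98.8 and 153, then 37.7 and 29.5, so that old and young overlapped. The 331 kept transcripts with the ATP-binding signature as a group peaked in adult in 19.6% of cases, fewer than the 29.1% of all transcripts.

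Of the core histones, 3 were members, 1 each of H2A, H2B and H3, which together with H4 form the spool that DNA wraps around. For H3 the scaled footprints were 472 and 572 in young, 5057 and 5134 in adult, then 2377 and 2209.8 in the old libraries. For H2A they were 604 and 785, then 5052 and 4627, then 2262 and 2102. For H2B they were 163 and 211, then 1252 and 1366, then 555 and 553. In each of the 3 the old pools lay close together and above both young pools. Old exceeded young by 2.16 ± 0.23 for H3 (edgeR adjusted p = 0.0125), 1.68 ± 0.24 for H2A (0.0166) and 1.59 ± 0.21 for H2B (0.0149), all on the log2 scale. With the first and last 20 codons left out, H3 and H2A were still called (0.0128 and 0.0170) but H2B was not, at a difference of 1.05 (adjusted p = 0.244).

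The histone members were 3 of 37 kept transcripts with a core histone signature, H4 being counted only at its length of 103 codons (8 transcripts). Of the 37, 33 had their highest mean in adult, 3, all of them H3, in young and 1, an H2B, in old libraries. In edgeR 26 were higher in adult than in young (1.17% of all transcripts) and 0 lower (0.186%). Their median log2 difference was 2.14, against -0.01 over all tested. The 37 include the 3 members, which the rule chose for an adult peak. The signatures were also listed after the members' sequences had been seen, so this adult excess is a description. Between old and young, 24 were higher in old (6.56% of all) and 0 lower (5.01%), with a median of 1.59 against 0.07. Shared sequence and internal codons are given here only for the 3 members. How far near-identical copies among the 37 affect these counts was not tested, so the 37 cannot be taken as separate observations. From adult to old the median was -0.73, and 3 were called lower (1.45% of all). That last direction turned with the scaling, since by library totals the median was 0.13 with 0 called (all transcripts 0.83). One H3 of 136 codons was the first transcript outside the rule. Its scaled footprints were 494 and 701 in young, 6497 and 7328 in adult, then 3281 and 2708 in the old libraries, for a ratio of 1.98.

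With size-factor scaling the MCM family ordered the ages otherwise than the histones did. By library totals 21 of the 37 histones were higher in old than in adult, where 13797 of all 15557 tested transcripts were. The histones' median log2 difference was 0.13 there, against 0.83 over all tested. The 6 transcripts with the signature of MCM proteins, the subunits of the helicase that opens DNA for copying, all had their highest mean in old libraries (36.7% of all kept transcripts). None was a member. All 6 were higher in old than in adult under TMM factors, size factors and library totals, with 0, 0 and 2 past the edgeR threshold. Of all 15557 tested transcripts 7802, 7631 and 13797 were higher, with 368, 366 and 2011 past it. By totals most transcripts were thus higher in old. All 6 were higher in old than in young and past the edgeR threshold (6.56% of all), with a median log2 difference of 2.10 against 0.07. All 6 were also higher in adult than in young, with a median of 1.46 against -0.01, but only 1 passed (1.17% of all). Their median adult values were 143 and 168 scaled footprints, between 32.7 and 61.3 in young and 226 and 206 in old libraries.

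**Figure D2:**
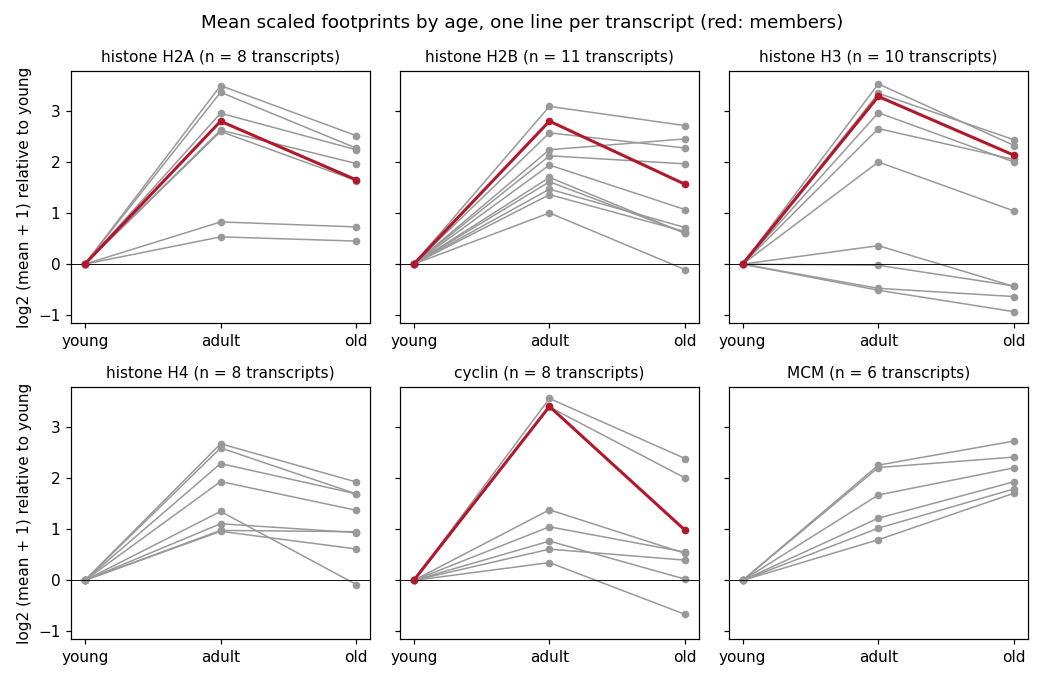
Change of the mean scaled footprints with age, as log2 of (mean + 1) relative to young, for each kept transcript with a histone H2A, H2B, H3, H4, cyclin or MCM signature (H4 of 103 codons only), 1 line per transcript with members in red. With the size-factor scaling drawn here, 33 of 37 histone and 8 of 8 cyclin lines are highest in adult, while all 6 MCM lines are highest in old. Of all kept transcripts 29.1% are highest in adult and 36.7% in old. By library totals 13797 of 15557 tested transcripts are higher in old than in adult, some of the histones and cyclins among them.

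The HLH member and both bZIP members were not called between old and young. The HLH transcript had 1400.5 and 1472 scaled footprints in young, 5015 and 4372 in adult, then 763 and 403 in the old libraries. Its old libraries were below both young ones, by 1.28 ± 0.33 on the log2 scale, at the edge of the threshold but not past it (edgeR adjusted p = 0.0503). With median-of-ratios factors in place of the TMM (trimmed mean of M-values) factors of this fit it was just past it (adjusted p = 0.0491), and with library totals it was not called. Of the 46 kept transcripts with the HLH signature, this one the only member, 41.3% peaked in adult, against 29.1% of all kept transcripts. The family's median log2 difference from young to adult was 0.06, and 1 of 53 tested was called higher in edgeR (1.17% of all).

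Both bZIP members stood near their young level in old fish. The one of 322 codons had 364 and 402 in young, 1357 and 1074 in adult, then 285 and 309 in the old libraries. The one of 354 codons had 250.0 and 351, then 886 and 799.7, then 371 and 183. Old was below young in the first and straddled it in the second, with differences of -0.34 ± 0.21 (edgeR adjusted p = 0.311) and -0.09 ± 0.35 (0.881). Of 43 kept bZIP transcripts, 34.9% were highest in adult, against 29.1% of all kept transcripts.

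The remaining signatures belonged to single members or pairs. A transcript of 337 codons held the active-site signature of tyrosine phosphatases, enzymes that remove phosphate from tyrosine or from several residues, and was lowest in old fish. It had 11.3 and 35.6 scaled footprints in young, 80.7 and 74.0 in adult, then 8.45 and 0.922 in the old libraries, the last from a single read. Of 2 members with the signature of rhodopsin-type receptors, which pass signals through the membrane to G proteins, the one of 537 codons was likewise low in old libraries, with 12.6 and 18.9 in young, 41.5 and 44.1 in adult, then 1.301 and 5.53 in old. The one of 414 codons had 16.3 and 14.7, then 53.3 and 72.4, then 23.4 and 17.5. The 2 receptors thus took opposite sides of young in old fish. Neither passed the edgeR test of old against young (adjusted p = 0.0755 at 537 codons and 0.502 at 414), nor did the phosphatase (0.124). A transcript of 387 codons with a WD repeat, a unit of propeller-shaped scaffolds, had 6.28 and 4.19, then 32.1 and 42.5, then 12.4 and 12.0. Members of 906, 620 and 201 codons held the phosphate-binding loop found in many enzymes that use ATP or GTP. All 3 had both old libraries above both young ones, as did 31.4% of all kept transcripts. None of the 3 passed the edgeR test of old against young (adjusted p = 0.0636, 0.165 and 0.162). The one of 906 codons had 28.9 and 30.4, then 233 and 294, then 99.5 and 48.9.

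Members without a signature included the longest one, which differed widely between pools. The transcript of 3276 codons, the longest member and the one with the most reads (56032), had 3170.3 and 7372 scaled footprints in young, 15112 and 29407 in adult, then 4600.1 and 1327 in the old libraries. Its pools differed by over 1.5 times at every age. The transcript of 241 codons had 127 and 420.1 in young, 2239.6 and 960.3 in adult, then 29.9 and 61.8 in the old libraries. Both old libraries were below both young ones, with a log2 difference of -2.57 ± 0.69 that did not pass the threshold (edgeR adjusted p = 0.0541). The transcript of 147 codons went from 306 and 893 to 2168 and 3479 and back to 879 and 488.

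Other members without a signature filled the range between these. The transcript of 145 codons, at 314 and 272 in young, 872 and 1181 in adult, then 297 and 254 in old, overlapped between young and old. The transcript of 575 codons had 37.7 and 58.7, then 396 and 836, then 149.6 and 78.4, with both old libraries above both young ones. The transcript of 413 codons had 51.5 and 71.2, then 223 and 209, then 18.2 and 64.5. Old and young overlapped in that one. The transcript of 110 codons, the last inside the rule, had 109 and 169.7, then 460.2 and 501, then 229.6 and 167, and the transcript of 182 codons 11.3 and 13.6, then 64.3 and 67.7, then 24.7 and 17.5. In the former the old libraries lay around the higher young value, and in the latter above both. The transcript of 392 codons had 148 and 168 in young, 528 and 508 in adult, then 101 and 203 in the old libraries, which lay on either side of young. It and the transcript of 715 codons had old to young ratios of 0.961 and 1.04. The transcript of 547 codons had 13.8 and 26.2, then 101 and 70.8, then 11.7 and 19.4, and that of 233 codons 7.54 and 17.8, then 43.1 and 58.2, then 16.9 and 14.8. Young and old overlapped in both. The transcripts of 547, 233, 586, 99 and 335 codons each had 249 summed reads or fewer, and their old to young ratios ran from 0.494 (99 codons) to 2.04 (586 codons).

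The mean of the young libraries was under 10 scaled footprints in 8 members, those of 576, 325, 686, 387, 586, 620, 206 and 335 codons, against 2.61% of all kept transcripts, a limit set after the values were seen. The rule capped the young values, and the minimum of summed footprints could be met mostly by adult reads. This excess is therefore favoured by the choice, and nothing is read from it. The transcript of 325 codons had 1.26 and 0 in young libraries, a single read in all, against 69.8 and 23.6 in adult, then 7.80 and 7.38 in old. The transcript of 686 codons had 7.54 and 10.5 in young, 164 and 195 in adult, then 62.4 and 30.4 in the old libraries. The transcript of 206 codons had 8.79 and 10.5, then 126 and 142, then 57.2 and 35.0. In these 3 both old libraries were above both young ones, but only the latter pair passed the test of old against young, by 2.38 ± 0.46 (edgeR adjusted p = 0.0275) and 2.27 ± 0.39 (0.0225) on the log2 scale. At 325 codons the adjusted p was 0.0958. The transcript of 586 codons had 10.0 and 8.38, then 47.8 and 69.3, then 20.2 and 17.5, and that of 620 codons 10.0 and 4.19, then 40.8 and 55.1, then 17.6 and 15.7. The transcript of 335 codons had 2.51 and 16.8, then 36.1 and 72.4, then 9.75 and 7.38. Both old libraries were above both young ones in 6 of the 8 and overlapped them in the other 2, those of 576 and 335 codons. Picking members for a low young mean favours this order, so nothing is read from it.

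The order of old and young was not fixed by the rule. Both old libraries were above both young ones in 20 members, where 31.4% of all kept transcripts were, and below both in 7, where 32.4% were, and the groups overlapped in the others. The 7 were the HLH protein, the bZIP protein of 322 codons, the phosphatase, the receptor of 537 codons and transcripts of 479, 241 and 99 codons. The mean of old was above that of young in 26 members (57.8%), against 50.5% of all kept transcripts, with a median old to young ratio of 1.24 against 1.01. In edgeR with Benjamini-Hochberg adjustment over 15557 transcripts, 8 of the 45 members were higher in old than in young, against 6.56% of all transcripts, and 0 were lower, against 5.01%. At an unadjusted p under 0.05 there were 19, where 31.2% of all transcripts were. DESeq2 called 9 higher and 2 lower, against 8.41% and 7.66% of the 16137 transcripts to which it gave an adjusted p. In both fits the spread came from all 6 libraries, on which the members were chosen, so these calls are not independent of the choice. The median log2 difference of the members was 0.33 and that of all transcripts 0.07.

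The 8 called were histones H3, H2A and H2B, the kinase of 303 codons and transcripts of 686, 206, 221 and 89 codons. The one of 221 codons had 11.3 and 16.8 in young, 154 and 192 in adult, then 63.1 and 35.0 in the old libraries, a difference between old and young of 1.82 ± 0.41 (edgeR adjusted p = 0.0372). The one of 89 codons had 148 and 189.6, then 687 and 886, then 343 and 298, a difference of 0.95 ± 0.23 (0.0432). Without the first and last 20 codons these 2 were no longer called (adjusted p = 0.0559 and 0.0605). No member was called when either young library was left out, and over all transcripts 0 were then called higher and 2 or 3 lower. Leaving out an old or adult library gave 7 to 10 calls among the members and 823 to 1513 over all transcripts. With library totals for scaling in place of TMM factors, an alternative chosen after seeing the data, 15 members were higher in old (20.4% of all transcripts) and 1 lower (0.971%), and the median of all transcripts moved to 0.93. All 8 were among the 15. The 1 called lower was the transcript of 241 codons.

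**Figure D3:**
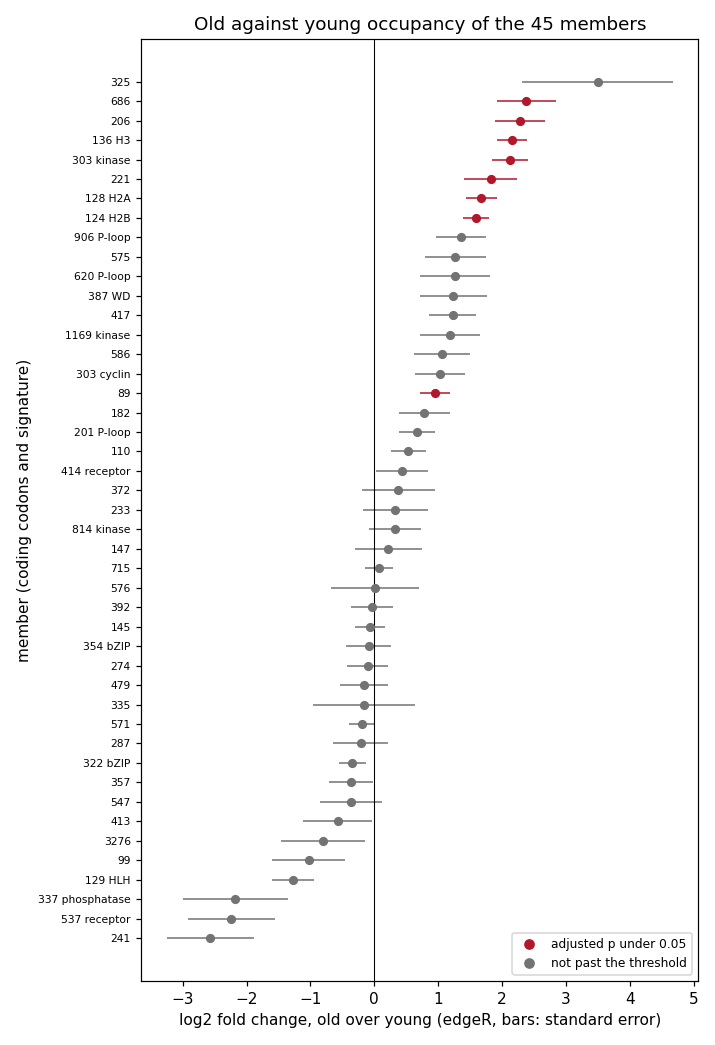
Log2 difference of old over young footprints for each of the 45 members with its standard error (edgeR, TMM factors, all 6 libraries in the fit). The 8 members past an adjusted p of 0.05 are red and all lie above 0; the transcript of 325 codons has the largest estimate, 3.50, and a wide error.

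For the other contrasts the members' counts follow from the rule and nothing is read from them. From young to adult 25 members were called higher, where 1.17% of all transcripts were higher and 0.186% lower, and the median adult to young ratio of the members was 4.83. From adult to old 28 were called lower, where 1.45% of all transcripts were lower and 2.37% higher, with a median adult to old ratio of 3.87. The common coefficient of variation between pools in the fit was 28.7%.

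Membership itself depended on the scaling of the libraries. Under TMM factors 46 transcripts met the rule and all 45 were among them. Under library totals only 10 did, of which 8 were members: those of 576, 274, 372, 417, 575, 335 and 3276 codons and the cyclin. Scaled by totals, 37 members were still above all young and old libraries and 8 were not, with a median ratio of 1.33. The change moved the median of all kept transcripts by 0.79 on the log2 scale between adult and old and by 0.03 between young and adult. The 3 histones were among the 8 that fell below a ratio of 1, at 0.804 (H3), 0.762 (H2A) and 0.855 (H2B), where an old library was the higher. The other 5 were the bZIP protein of 354 codons (0.911) and transcripts of 392, 201, 715 and 110 codons (0.868, 0.777, 0.718 and 0.921).

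**Figure D4:**
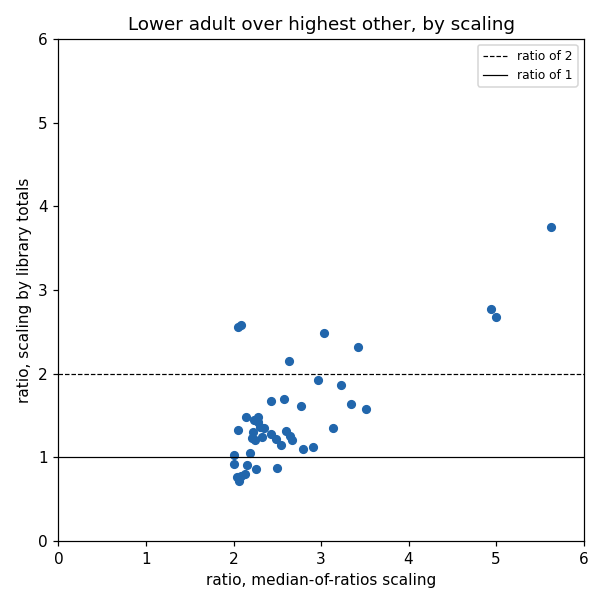
Ratio of the lower adult to the highest other value for each of the 45 members with size-factor scaling (horizontal axis) and with scaling by library totals (vertical axis), with lines at 2 and 1. Of the 45 points, 8 stay above 2 and 8 lie at or below 1 by totals.

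At the threshold the members just inside had ratios of 2.04 (H2A), 2.00 (89 codons) and 2.00 (110 codons), and the transcripts just outside 1.98 (H3 of 136 codons), 1.97 (470 codons) and 1.96 (309 codons). The one of 470 codons had 911 and 1159 scaled footprints in young, 2284 and 2673 in adult, then 774 and 623 in the old libraries. The one of 309 codons had 6.28 and 4.19, then 33.7 and 29.9, then 13.7 and 14.8.

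Where the footprints lay along the coding sequence had no part in the rule. With the most loaded codon of each transcript left out, a check chosen after seeing the data, 41 of the 45 kept a ratio over 2. The other 4, of 99, 537, 335 and 110 codons, had ratios of 1.97, 1.98, 1.95 and 1.94. This repeats the rule's own ratio on nearly the same reads, so it is a description. The most loaded codon held 3.20% of a member's footprints in the median, against 2.34% over all kept transcripts. It held over 10% in 1, histone H2B. There 22.7% lay on the start codon, between 84.6% and 94.3% of each library's reads lay in the first of 10 equal segments of the coding sequence, and 24.8% of codons had any read. With the first and last 20 codons left out, the H2B ratio was 0.853. Reads of H3 and H2A were spread over the whole length, with 93.4% and 97.7% of codons covered, and the first of the 10 segments held 17.0% to 21.8% of the H3 reads of a library. Other members were uneven too. That of 547 codons held 45.5% to 66.7% of each library's reads in the 9th segment and 31.1% to 47.6% in the last. Only 14.4% of its codons had any read. That of 392 codons had no read in the 2nd and 8th segments, and that of 274 codons none in the 6th and 7th.

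**Figure D5:**
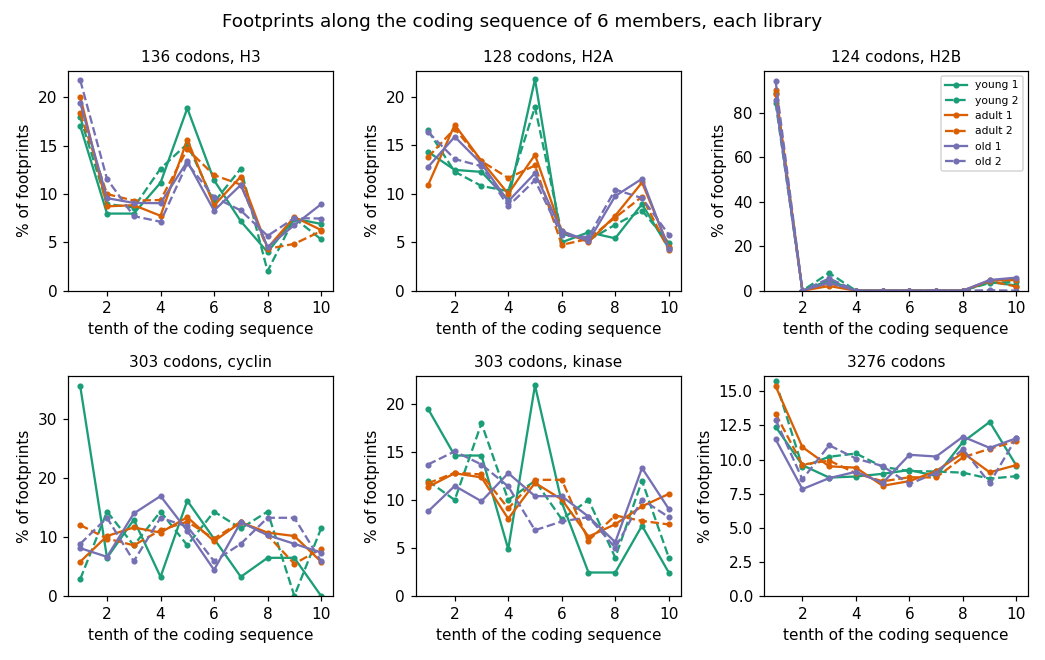
Share of each library's footprints in each of 10 equal segments of the coding sequence for 6 members. H2B holds 84.6% to 94.3% in the first segment in all libraries, whereas the other 5 have reads along their whole length, with more scatter in the cyclin and the kinase of 303 codons, whose young libraries have few reads.

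The balance between the first and second part of the coding sequence was also tested, as log2 of the ratio of footprints before and after its middle codon without the first and last 20 codons. Only 13 members had the 64 internal reads in each library that the test required. In limma 0 of 6990 transcripts were called between young and adult (0%) and 0 between adult and old (0%), members included, with 501 and 471 at an unadjusted p under 0.05. Of the 13 members 3 and 2 were among these. The median difference of the 13 was -0.01 from young to adult and -0.02 from adult to old.

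In composition the members resembled the transcripts from which they were drawn, but in the median they were shorter. Their median length was 337 codons, from 89 to 3276, against 446 over all kept transcripts. The share of G or C at the third codon position had a median of 61.7% against 61.6%, lysine and arginine 11.2% against 11.3%, aspartate and glutamate 11.8% against 11.9%, serine 9.09% against 8.26% and leucine 9.87% against 9.44% of residues. Footprints covered a median of 61.7% of codons against 65.5%. The member richest in lysine and arginine reached 25.8% and the poorest 4.29%.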

How the data were processed

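Ribosome profiling libraries of pooled killifish livers (2 to 10 livers per pool in the methods, 5 to 10 in the labels; cycloheximide in the lysis buffer) were compared at 3 ages with 2 libraries each. The authors, per the methods and the submitters' processing notes (CASAVA 1.8, Cutadapt 1.4.2, Bowtie 1.3.1), trimmed adapters and the first nucleotide, discarded rRNA reads and kept unique best alignments, with up to 2 mismatches, to the longest transcript of 22757 genes with 21 flanking bases. Read lengths without 3-nucleotide periodicity were removed with riboWaltz. The methods name the genome build Nfu_20150522 for the RNA-seq; the build of the footprint library is not given in the sources used here. The deposited values are counts of footprints per codon, not normalized and without molecular identifiers, so PCR copies count separately.

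Counts were summed from start to stop codon. edgeR 4.0.16 (R 4.3.3; TMM, filterByExpr, quasi-likelihood test, age as the term, all 6 libraries in 1 fit) tested occupancy. limma 3.58.1 tested the log2 balance of footprints along the coding sequence with a pseudocount of 1. Adjusted p under 0.05 (Benjamini-Hochberg) was called. The tests weighed each difference against a spread between pools that was moderated across transcripts. Standard errors of edgeR differences were back-calculated from the difference and its test statistic. Alternatives were DESeq2 1.42.0 or its size factors, no low-count filter, internal codons, a replicate block, and other minimums, ratios, added counts, thinned depth and left-out libraries. The fit was tested on simulated data. Described individually were the 25 members with the largest ratio, the 10 most abundant per length, those called in old against young, and 3 transcripts on either side of the threshold; the other members are given by their signature or in counts. The members, lists and signatures were chosen with earlier results of these data known.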

Additional observations from a re-analysis of the deposited data

How the results depend on the processing

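The number of members was 10 with library totals, 20 with a minimum of 1000 summed reads, 168 with a ratio over 1.5, 9 with a ratio over 3 and 49 to 302 with 1 library left out (302 and 119 without adult replicate 1 or 2, 132 without old replicate 1). TMM factors, a minimum of 50 reads, 10 as the added count, internal codons and thinned libraries gave 33 to 47. Ratios that went to the other side of 1 under library totals were those of 392 (0.868), 124 (0.855), 354 (0.911), 136 (0.804), 201 (0.777), 715 (0.718), 128 (0.762) and 110 codons (0.921), and that of 124 codons did so on internal codons as well (0.853). Calls over all transcripts were 1800 for old against young, 211 for adult against young and 594 for old against adult. Without the low-count filter they were 2735, 685 and 1905, with DESeq2 2593, 634 and 1789, and with library totals in edgeR, chosen after seeing the data, 3331, 400 and 2118. Leaving out 1 library gave 2 to 1513, 0 to 329 and 0 to 926, lowest without a young library. Members called were 8, 25 and 28. Without the filter they were 16, 40 and 42, with DESeq2 11, 40 and 42, with library totals 16, 27 and 10, on internal codons 5, 21 and 28, and with 1 library left out 0 to 10, 0 to 30 and 0 to 29. The balance of footprints along the coding sequence gave 0 calls under all alternatives except 3 and 2 without adult replicate 1, none of them members. The 8 members called in old against young kept their direction under these alternatives, and single calls were lost in 30 instances, those of all 8 members without either young library among them. The cause was not tested for any of these.

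Replicate numbers were not taken to pair the samples. Differences between replicates 1 and 2 correlated across transcripts at -0.04 for young and adult. They correlated at 0.13 for young and old and -0.14 for adult and old. Among the members these values were 0.06, -0.07 and -0.37. With the replicate block, calls were 952 for old against young, 28 for adult against young and 1 for old against adult, with 5, 5 and 0 members called and 0 calls in the balance test for either contrast. Depth limits the 25 members with under 1000 summed reads most.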
